A study of Mus musculus with 2 samples.

Results

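Transcripts of the hypothalamus of mice fed bezafibrate were compared between ZT22 and ZT10, that is, 22 and 10 hours after lights on in zeitgeber time. Each time was represented by 1 pool of RNA from 4 mice and by 1 one-colour array, so the comparison rests on 1 pair of arrays and no p-value is given. A gene was described when its probe was well above background on both bezafibrate arrays and reached 100 intensity units, before any scaling, on at least 1 of them. These conditions were met by 13204 genes of the 21476 with a probe measured on both arrays (61.5%). Of the remainder, 2820 were above background on both arrays but under 100 units, 757 were above background on 1 array only and 4695 on neither.

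Per the labels, the mice began at 8 weeks of age with 2 weeks on normal feed. A bezafibrate diet (0.5% of the feed) followed, also for 2 weeks, and after that 5 weeks back on normal feed. The labels did not settle at which stage of this schedule the brains were taken. Control mice, used here as the background of the same time comparison, form 1 further pool of 4 mice at each time. Strain and sex of the mice were not given in the sources used here. A square block of brain that holds the hypothalamus was cut out after decapitation, and 400 ng of total RNA of each pool was labelled.

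Bezafibrate is a fibrate, a lipid-lowering drug that activates PPAR nuclear receptors, which pair with RXR and switch on genes of fatty acid oxidation. The hypothalamus holds the suprachiasmatic nucleus, the master pacemaker of the body. In each cell, CLOCK and BMAL1 (the product of Arntl) bind E-box letters and switch on the Per, Cry, Nr1d1 and Dbp genes, and PER and CRY proteins then shut that drive off. How much tissue from around the hypothalamus the block held, such as choroid plexus, meninges, pituitary stalk or striatum, was not tested.

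Signals are given as scaled signals, on a linear scale on which the 75th percentile of each array is 1000. Ratios are log2 ratios of ZT22 over ZT10, so that a positive value is a higher signal at ZT22. Behind each ± stands the error that the scanner software assigns to that ratio. Variation among mice or pools is not part of it and cannot be estimated from 1 pool per time. Levels are not compared between genes, and the summed signal of a list is set only against the sum of the same probes on another array.

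Both bezafibrate arrays lay on the same slide, at positions 4 (ZT10) and 3 (ZT22). On them, 68.7% and 70.6% of 43379 features were well above background, and no spot was saturated. The log2 signals of repeated spots had a median SD of 0.063 on the ZT10 and 0.064 on the ZT22 array. Precision is limited by the array number. Transcripts that define the hypothalamus were present in both pools. Melanin-concentrating hormone (Pmch) had a scaled signal of 57429 at ZT10 and 64390 at ZT22, orexin (Hcrt) of 68571 and 78163, and vasopressin (Avp) of 37714 and 55655. The hypothalamic transcription factors Nkx2-1 (599 and 636) and Sim1 (108 and 130) were described too, while Otp, Lmx1b, Nhlh2, Bsx and Rax were not.

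Most transcripts differed little between the times. The median log2 ratio was 0.04, the quartiles were -0.07 and 0.13, and 98.2% of the genes lay within 1.5-fold. The ratio was above 0 for 7902 genes (59.8%). Counts of positive ratios and of genes past 1.5-fold in the lists below are to be read beside these shares. The signal was at least 1.5-fold higher at ZT22 for 155 genes (1.17%) and at least 1.5-fold lower for 84 (0.636%). Rises made up 64.9% of these genes. Among the alternatives tried, the share ran from 56.4% with no unit filter to 75.2% with another background correction (normexp). At 2-fold, 39 genes (0.295%) were higher and 20 (0.151%) were lower. Fold differences past 1.5-fold are called here rises and falls from ZT10 to ZT22, which describes these pools.

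**Figure D1:**
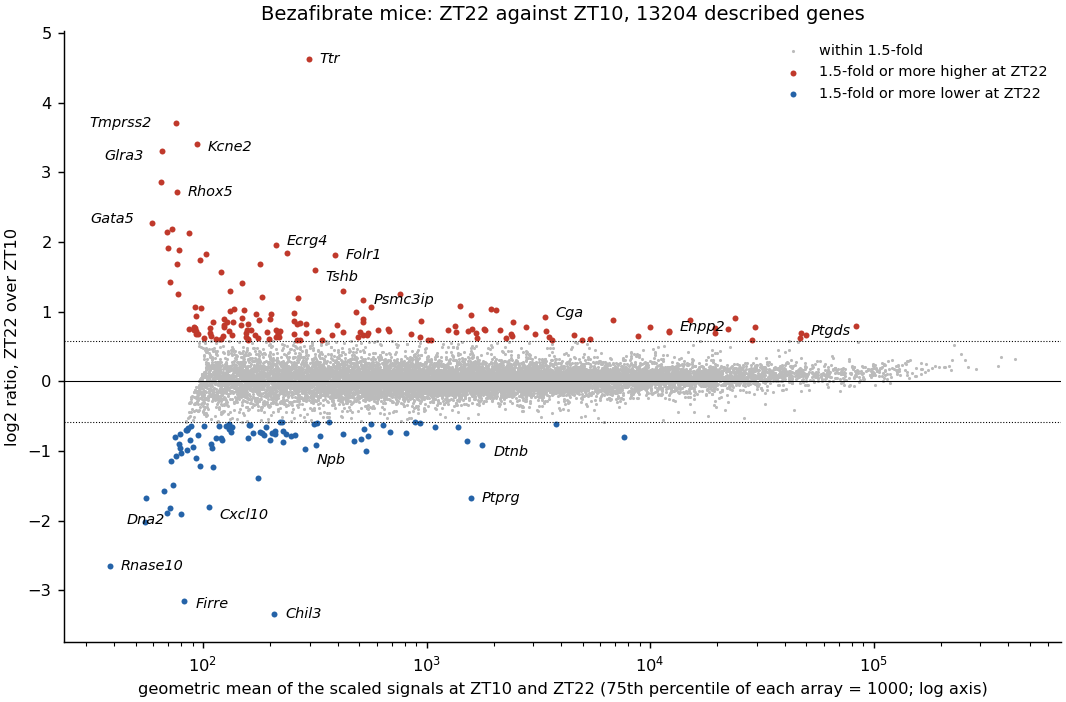
Each point is 1 of the 13204 described genes in bezafibrate mice. The log2 ratio of ZT22 over ZT10 is plotted against the geometric mean of the scaled signals at both times on a log axis. Dotted lines mark 1.5-fold. The widest ratios, Ttr at 4.63 and Chil3 at -3.34, belong to genes of low to middle signal, and few bright genes pass the lines.

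The share past 1.5-fold depended on the signal. It was 27.3% of 198 genes with a mean signal under 100 units, 4.75% of 1327 genes between 100 and 200 units and 0.573% of 3143 genes over 5000 units. Among the 7727 genes with a mean signal of 1000 units or more, 40 rose and 6 fell. Of the genes that rose, 41 reached 100 units at ZT22 only, and of those that fell, 42 reached them at ZT10 only, so these genes had to differ in order to be described. The 84 genes whose higher signal was less than 5 units above 100 had a median log2 ratio of 0.07, with 7 past 1.5-fold. The 93 genes up to 5 units below 100 had a median of 0.05, with 10 past it.

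Among the highest ratios were those of genes of the choroid plexus, the secretory epithelium of the ventricles that makes cerebrospinal fluid. Transthyretin (Ttr, NM_013697), the thyroid hormone and retinol carrier that this epithelium secretes, had a scaled signal of 59.7 at ZT10 and 1478 at ZT22 in bezafibrate mice. This was a 24.8-fold rise, or 4.63 ± 0.23 on the log2 scale, against 58.2 and 109 in control mice (0.90). The potassium channel subunit Kcne2 went from 28.8 to 307 (3.42 ± 0.25; 0.71 in control mice). The water channel Aqp1 went from 40.7 to 150 (1.88 ± 0.23; 0.19 in control mice). These 3 genes were under 100 units at ZT10 and entered through ZT22.

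Of the 16 choroid plexus genes listed, 11 were described. All 11 had a positive ratio in bezafibrate mice, and 9 were past 1.5-fold, with a median log2 ratio of 0.89 against 0.04 over all genes described. Among the 8 that had 100 units on both arrays, 8 were higher at ZT22 and 6 were past 1.5-fold. The folate receptor Folr1 rose from 207 to 729 (1.82 ± 0.20; 0.18 in control mice). The anti-ageing hormone gene Kl rose from 181 to 358 (0.99 ± 0.20), the BMP and WNT antagonist Sostdc1 from 381 to 705 (0.89 ± 0.20) and the sulfate transporter Slc13a4 from 1819 to 3270 (0.85 ± 0.20). Autotaxin (Enpp2) rose from 9524 to 15566 (0.71 ± 0.20) and the calcium channel Trpv4 from 301 to 479 (0.67 ± 0.20). Calml4 (0.53 ± 0.20) and the chloride channel Clic6 (0.27 ± 0.20) had smaller positive ratios.

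In control mice, the same 11 genes had a median log2 ratio of 0.23, and 2 of them were past 1.5-fold. The summed scaled signal of the 11 genes was 18474 at ZT10 and 30349 at ZT22 in bezafibrate mice, and 20301 and 23631 in control mice. Enpp2 was the largest part of each sum, with 9524 and 15566, and 10792 and 11980 in control mice. At ZT10, Ttr differed little between diets (59.7 and 58.2), so the wider ratio in bezafibrate mice came from the ZT22 pool. Of the listed genes not described, Otx2 had a signal of 79.4 units at ZT10 and 75.2 units at ZT22, Cldn2 of 17.5 and 30.3, and Slc4a5 and Cldn1 were well above background at ZT22 only. In pooled tissue, more cells of a type and more RNA per cell cannot be told apart, and how much choroid plexus each block held was not tested.

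Other genes with the widest rises were spread over many functions. The serine protease gene Tmprss2 went from 20.9 to 274 (3.72 ± 0.31), the glycine receptor subunit Glra3 from 20.8 to 206 (3.31 ± 0.29) and the homeobox gene Rhox5 from 29.8 to 197 (2.73 ± 0.26). The transcription factor Gata5 (2.28 ± 0.25), the retinol esterifying enzyme Lrat (2.19 ± 0.26), the annexin Anxa8 (2.15 ± 0.08) and the dynein assembly gene Dnaaf6b (2.13 ± 0.23) followed. All 7 were under 100 units at ZT10. In control mice Anxa8 also rose (1.87), Tmprss2 had a log2 ratio of 0.52, Gata5 of 0.47, Lrat of -0.18, Rhox5 of -0.05 and Dnaaf6b of -0.01.

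Ecrg4, a secreted peptide precursor, went from 107 to 417 (1.97 ± 0.21; 0.10 in control mice), and the zinc finger gene Zfp605 from 125 to 449 (1.85 ± 0.21; 1.74 in control mice). The hemojuvelin gene Hjv (1.82 ± 0.22), Wdr86 (1.74 ± 0.22), the cytochrome P450 genes Cyp2c70 (1.68 ± 0.21) and Cyp2d26 (1.57 ± 0.22), the chemokine receptor Ccr6 (1.41 ± 0.21) and the kinase Stk32c (2.46-fold) completed the highest 20 with Ttr, Kcne2, Aqp1, Folr1 and Tshb. Cytochrome P450 genes form families of similar members, and whether their probes read relatives was not tested. Of these genes, Hjv, Wdr86, Cyp2d26 and Ccr6 reached 100 units at ZT22 only.

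Meningeal genes had mostly higher signals at ZT22. All 20 listed genes of meningeal fibroblasts, the cells of the brain's coverings, were described. Of these, 19 had a positive ratio and 9 rose past 1.5-fold, with a median of 0.57 against 0.27 in control mice, where 4 were past 1.5-fold. The GABA transporter Slc6a13 went from 703 to 1277 (0.86 ± 0.20), with 0.85 for its other probe and 0.78 in control mice. The organic anion transporter Slc22a6 went from 387 to 697 (0.85 ± 0.20), and the IGF-binding protein Igfbp2 from 1229 to 2072 (0.75 ± 0.20; -0.20 in control mice).

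The proteoglycan osteoglycin (Ogn, 0.71 ± 0.20), type III collagen (Col3a1, 0.68 ± 0.21), the growth factor Igf2 (0.68 ± 0.07; 0.61 for its other probe), the retinoic acid enzyme Aldh1a2 (0.67 ± 0.20), fibulin (Fbln1, 0.64 ± 0.20) and prostaglandin D synthase (Ptgds, 0.62 ± 0.20) were the other genes past 1.5-fold. Fbln1 was under 1.5-fold with normexp correction (0.53) and as the mean of its probes (0.54). Ptgds makes the sleep-promoting prostaglandin D2. It went from 37810 to 58231 in bezafibrate mice and from 37525 to 57426 in control mice (0.61), and its bezafibrate ratio was 0.51, under 1.5-fold, with quantile normalization. Mgp (-0.04), Slc13a3 (0.04), Col1a2 (0.11) and Dcn (0.14) had the lowest ratios of the list. The summed signal of the list was 54757 at ZT10 and 80536 at ZT22, and 56790 and 79827 in control mice. Most of each sum was Ptgds, so the sums say little about the other genes of the list.

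Hormone genes of the anterior pituitary also differed. Thyrotropin (Tshb), the pituitary hormone that drives the thyroid, rose from 181 to 551 (1.61 ± 0.21), against 224 and 216 in control mice. Its partner, the common glycoprotein hormone subunit Cga, rose from 2448 to 4647 (0.93 ± 0.20; -0.20 in control mice). Pomc, the precursor of pituitary ACTH and of the satiety peptide of arcuate neurons, rose from 7029 to 11019 (0.65 ± 0.20). In control mice Pomc had 15545 and 15743 (0.02), above the signal of both bezafibrate pools. Of the 14 listed genes 6 were described, and Lhb (0.28 ± 0.20), Chgb (0.16 ± 0.07) and Gal (0.14 ± 0.20) had smaller positive ratios.

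The most abundant pituitary hormones did not share this pattern. The signal of prolactin (Prl) was 17.7 units at ZT10 and 2.41 at ZT22, where it was not well above background. That of growth hormone (Gh) was 15.9 units at ZT10 and 9.25 at ZT22, again not well above background. Pou1f1, Tbx19 and Gnrhr were not well above background at either time. Whether the Tshb and Cga signal came from the pituitary stalk was not tested.

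**Figure D2:**
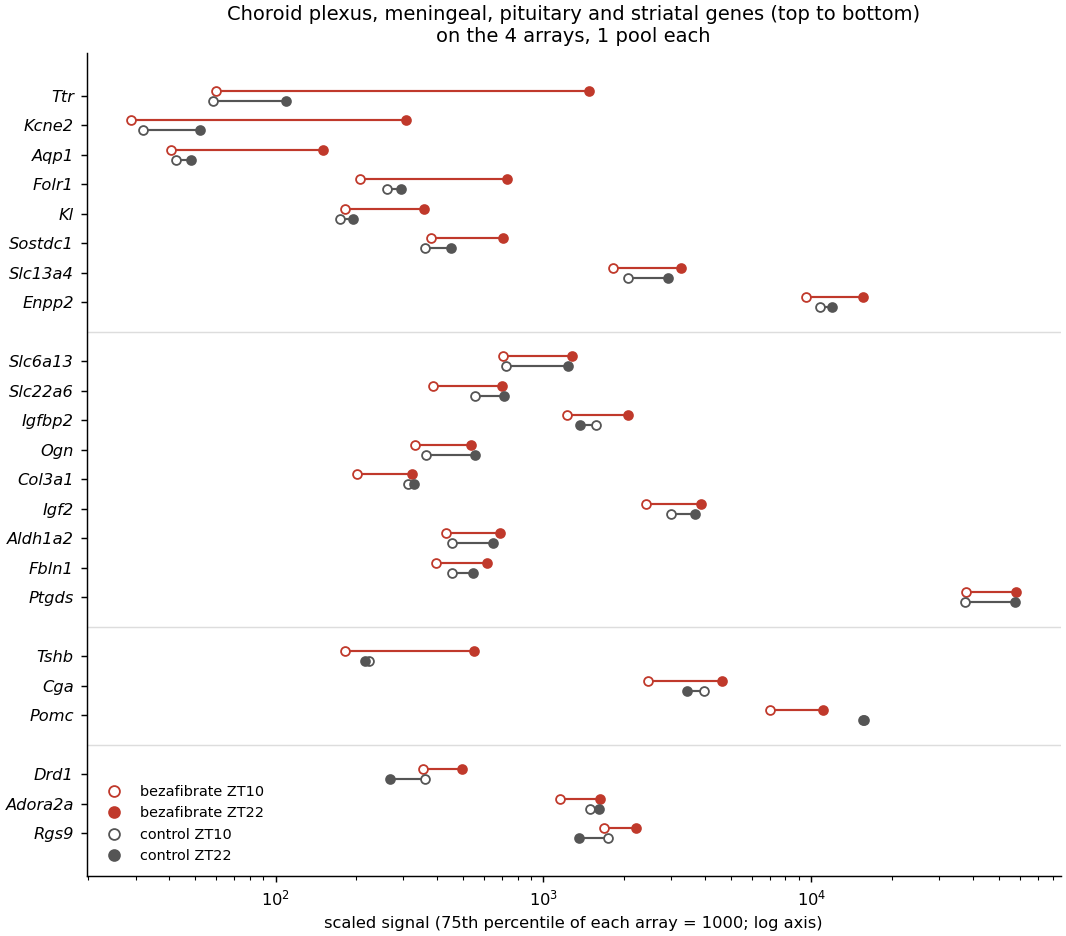
Scaled signals on a log axis for the genes at left, in bezafibrate mice (red, upper line of each pair) and control mice (grey, lower line). Open circles are ZT10, filled circles are ZT22, each is 1 pool of 4 mice, and levels of different genes are not comparable. Ttr, Kcne2, Folr1 and Tshb have long red and short grey lines, whereas Slc6a13, Ogn and Ptgds move alike in both diets.

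Genes of striatal projection neurons had higher signals at ZT22 in bezafibrate mice and mostly lower ones in control mice. All 19 listed genes were described. In bezafibrate mice 17 had a positive ratio, with a median of 0.28, whereas in control mice 15 had a negative one, with a median of -0.16. In bezafibrate mice 1 of the 19 passed 1.5-fold. The adenosine receptor Adora2a went from 1152 to 1624 (0.49 ± 0.20; 0.84 for its other probe and 0.67, past 1.5-fold, as their mean), the dopamine D1 receptor Drd1 from 356 to 495 (0.47 ± 0.20; -0.43 in control mice) and Rgs9 from 1686 to 2217 (0.40 ± 0.20; -0.36 in control mice). The summed signal of the list was 99198 at ZT10 and 123188 at ZT22, against 99030 and 92954 in control mice. Most of each sum was Penk, with 57810 and 74020, and 58317 and 54554 in control mice. The other probe of Penk had a ratio of 0.01 in bezafibrate mice. How much striatum each block held was not tested.

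Myelin genes had lower signals at ZT22. Of 19 described genes of 20 listed, 18 had a negative ratio and none passed 1.5-fold, with a median of -0.18 against 0.05 in control mice. The kallikrein Klk6 went from 435 to 291 (-0.58 ± 0.20) and passed 1.5-fold when arrays were scaled on their median (-0.59). Opalin (-0.42 ± 0.20), Mal (-0.42 ± 0.20; -0.30 for its other probe), the myelin enzyme Cnp (-0.37 ± 0.20) and Mog (-0.35 ± 0.20) were next. The bright myelin gene Mbp had -0.06 ± 0.07.

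Several lists of other cell types had a median near that of all genes. This median was 0.01 for 14 microglial genes, 0.02 for 15 endothelial genes, 0.02 for 14 general neuronal genes, 0.03 for 16 thalamic genes and 0.07 for 13 astrocyte genes. Tanycyte and ependymal genes had a median of 0.21, with Crym at 0.56 ± 0.20 (0.60, past 1.5-fold, with normexp correction) and Dio3 at -0.05 ± 0.21, and cortical and hippocampal genes of 0.17, with Slc17a7, Neurod1, Neurod6, Tbr1 and Mas1 among those not described. Single members passed 1.5-fold in the vascular lists. The tight junction gene Cldn5 rose (0.67 ± 0.20; 1.12 in control mice), smooth muscle myosin Myh11 fell (-0.76 ± 0.21; -0.73 in control mice) and Tagln rose (0.63 ± 0.20), although its other probe had -0.15. The alarmin S100a9 was the only described gene of 13 neutrophil markers (0.66 ± 0.21; 0.87 in control mice). With normexp correction Myh11 (-0.58) and S100a9 (0.47) were under 1.5-fold, and so was Tagln averaged over its probes (0.24). Of 8 erythroid genes 2 were described, Alas2 (-0.19 ± 0.20; 0.20 in control mice) and the globin gene Hba-a1 (-0.19 ± 0.20; 0.11 in control mice). The 9 oligodendrocyte precursor genes had a median of 0.02.

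**Figure D3:**
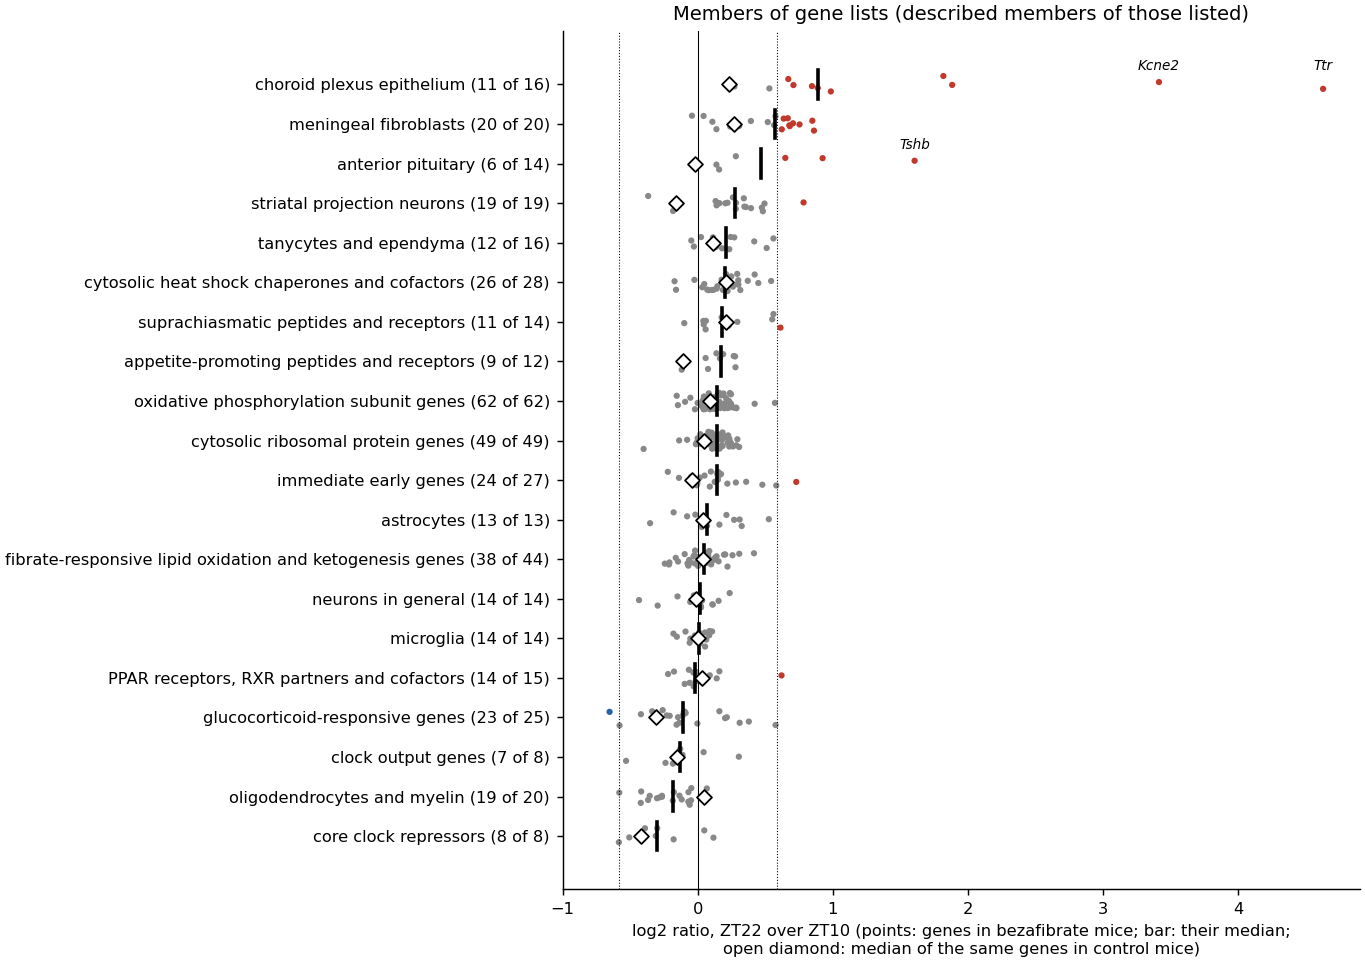
Log2 ratios of ZT22 over ZT10 for the described members of 20 gene lists, with described and listed numbers in brackets. Grey points lie within 1.5-fold (dotted lines), red points above and blue points below. Bars are list medians in bezafibrate mice and open diamonds are medians of the same genes in control mice. Choroid plexus, meningeal and pituitary lists lie furthest to the right, and clock repressors furthest to the left.

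Clock genes had small ratios. All 8 core clock repressors were described. Of these, 6 had a lower signal at ZT22, with a median of -0.30, against 8 and -0.42 in control mice, and none was past 1.5-fold. Per3, a PERIOD gene, went from 183 to 122 (-0.58 ± 0.21; -0.64 in control mice). It stayed just under 1.5-fold and passed it when scaled on the array median (-0.60) or by quantiles (-0.59). Ciart, which encodes the repressor CHRONO, went from 337 to 237 (-0.51 ± 0.21), against -0.99 in control mice. With normexp correction the ratio of Ciart was -0.25.

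Per2 went from 619 to 473 (-0.39 ± 0.20), Per1 from 3248 to 2620 (-0.31 ± 0.20), Cry1 from 167 to 135 (-0.30 ± 0.21) and Cry2 from 2648 to 2340 (-0.18 ± 0.20). Bhlhe40 (0.05 ± 0.20) and Bhlhe41 (0.12 ± 0.21) were the members with a positive ratio, and both had negative ones in control mice (-0.13 and -0.40). These ratios are between 1 and 3 scanner errors in size for Per1, Per2, Per3, Cry1 and Ciart.

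Of the 7 described activators and nuclear receptors of the clock, 3 had a positive and 4 a negative ratio, with a median of -0.06 (0.01 with normexp correction). The activator genes Arntl (from 971 to 1232, 0.34 ± 0.20) and Clock (from 1438 to 1725, 0.26 ± 0.20; 0.17 for its other probe) had higher signals at ZT22. Arntl had 0.49 and Clock 0.29 in control mice. Nr1d1, the nuclear receptor REV-ERBα that represses Arntl, went from 536 to 445 (-0.27 ± 0.20), with -0.90 in control mice, and Nr1d2 had -0.17 ± 0.20. Rora (-0.33 ± 0.20; -0.26 for its other probe) and Rorb (0.39 ± 0.21) differed in sign. Clock kinases and ubiquitin ligases lay between -0.34 (Btrc) and 0.25 (Csnk2a1), with a median of 0.03 that was -0.04 under quantile normalization. Npas2, with a signal of 35.1 units at ZT10 and 40.8 at ZT22, was not described.

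Of 7 described clock outputs, 5 had a negative ratio, with a median of -0.13. The PAR bZIP factor Dbp went from 31524 to 21837 (-0.53 ± 0.20), against -1.26 in control mice, and passed 1.5-fold with quantile normalization (-0.63). Its relatives Tef (-0.24 ± 0.20; -0.66 for its other probe) and Hlf (-0.13 ± 0.20) had smaller ratios. The deubiquitinase Usp2 had -0.18 ± 0.20 and -0.76 in control mice. Nfil3, the bZIP repressor of D-box genes, went from 1133 to 1400 (0.30 ± 0.20; 0.54 in control mice). Of the 22 described genes of these 3 lists, Dbp, Nr1d1, Usp2, Bhlhe41 and Ciart had the ratios furthest from those of control mice, and their differences were not tested.

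Clock and heat shock genes are set beside their promoter letters because factors known to act on both pathways bind short DNA elements. The windows come from RefSeq (GRCm38.p6), from 250 bases before to 50 after the start site, are written 5′ to 3′ on the gene's strand, and were picked after the ratios were seen. Capitals mark the letters searched on both strands. These were the E-box CACGTG and the D-box TTATGTAA or TTACGTAA for clock genes, and GAANNTTC or TTCNNGAA, the head-to-head and tail-to-tail units of a heat shock element, for chaperone genes. Matches of the last 2 forms may overlap each other. Ciart (chr3:95882179-95882478, minus strand) held 3 E-boxes, which start 116, 58 and 44 bases before the start site, and Per3 (chr4:151044616-151044915, minus strand) held 2 D-boxes.
Ciart: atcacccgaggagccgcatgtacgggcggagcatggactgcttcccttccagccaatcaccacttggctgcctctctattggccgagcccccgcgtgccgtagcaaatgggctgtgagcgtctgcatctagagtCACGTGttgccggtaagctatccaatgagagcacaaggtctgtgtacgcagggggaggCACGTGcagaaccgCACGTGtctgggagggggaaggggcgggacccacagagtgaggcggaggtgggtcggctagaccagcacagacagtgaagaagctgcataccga
Per3: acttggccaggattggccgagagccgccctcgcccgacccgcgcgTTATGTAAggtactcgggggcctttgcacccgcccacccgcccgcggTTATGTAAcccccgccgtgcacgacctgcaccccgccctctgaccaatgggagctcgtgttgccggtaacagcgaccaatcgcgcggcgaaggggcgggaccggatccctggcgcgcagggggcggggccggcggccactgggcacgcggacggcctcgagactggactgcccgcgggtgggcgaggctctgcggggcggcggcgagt

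An E-box was present in the windows of 5 of the 19 genes of these clock lists that have a window (26.3%). These were Per1, Cry1, Ciart, Bhlhe41 and Tef. The share was 8.09% of 27025 genes in the table and 11.6% of described genes with a window. Per1, Cry1, Ciart and Tef had negative ratios and Bhlhe41 a positive one. The D-box was found in the window of Per3 only among these 19 genes, against 1.23% of all genes and 0.867% of described genes with a window. Over the genes that rose, 8.55% of 117 with a window held an E-box, and over those that fell, 13.3% of 45, against 11.6% of the 10151 described genes with a window.

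Heat shock chaperones, which refold proteins and follow body temperature over the day, had slightly higher signals at ZT22. Of 28 listed genes 26 were described. The ratio was positive for 23 of them, with a median of 0.20, and for 24 in control mice, with a median of 0.21. None was past 1.5-fold in bezafibrate mice. The inducible HSP70 gene Hspa1a went from 2381 to 3471 (0.54 ± 0.20; 0.64 for its other probe), and in control mice it had 0.68. Its near-identical neighbour Hspa1b may share its probes, which was not tested.

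Hspa4 (0.45 ± 0.20) had a ratio of -0.20 with its other probe. Hsph1 went from 34762 to 46585 (0.42 ± 0.20), the mitochondrial co-chaperonin Hspe1 from 10476 to 13550 (0.37 ± 0.20) and the constitutive Hspa8 from 69714 to 86786 (0.32 ± 0.20; -0.07 for its other probe). Hspb8 (-0.17 ± 0.20), Fkbp4 (-0.16 ± 0.20) and Ahsa2 (-0.02 ± 0.21) were lower. With quantile normalization 20 of the 26 were positive and the median was 0.13. The cold-inducible RNA-binding protein Cirbp, which is made at lower temperature, had the opposite sign, from 24952 to 18701 (-0.42 ± 0.20; -0.50 in control mice). Rbm3 was not described. The splicing factor Srsf5 had 0.20 ± 0.20. Of 26 endoplasmic reticulum chaperone and unfolded protein response genes, 21 had a positive ratio and none passed 1.5-fold, with a median of 0.09, from -0.31 for Atf4 to 0.44 for Pdia6.

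The windows of 12 of 20 heat shock list genes held the letters of a heat shock element (60%). The share was 17% of all genes in the table and 13.7% of described genes with a window. Hspa1a (chr17:34972107-34972406, minus strand) held 1 match, 104 bases before the start site. Hspe1 (chr1:55087898-55088197, plus strand) held 3 overlapping matches, which start 89, 84 and 79 bases before the start site. The gene Hspd1 lies head to head with Hspe1, and 1 of its windows covers the same 3 matches; Hspd1 had a ratio of 0.18 ± 0.20.
Hspa1a: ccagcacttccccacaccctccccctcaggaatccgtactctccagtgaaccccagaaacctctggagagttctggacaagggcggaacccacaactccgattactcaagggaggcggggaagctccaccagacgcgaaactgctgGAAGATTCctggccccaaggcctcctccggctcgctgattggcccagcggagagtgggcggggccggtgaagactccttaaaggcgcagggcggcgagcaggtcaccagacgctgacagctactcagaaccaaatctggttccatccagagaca
Hspe1: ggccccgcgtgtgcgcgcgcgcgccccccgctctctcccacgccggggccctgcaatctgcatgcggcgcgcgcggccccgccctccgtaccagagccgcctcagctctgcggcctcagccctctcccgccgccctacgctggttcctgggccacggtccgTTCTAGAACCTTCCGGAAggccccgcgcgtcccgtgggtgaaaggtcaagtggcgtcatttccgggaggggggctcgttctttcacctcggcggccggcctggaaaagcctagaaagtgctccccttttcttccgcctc

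**Figure D4:**
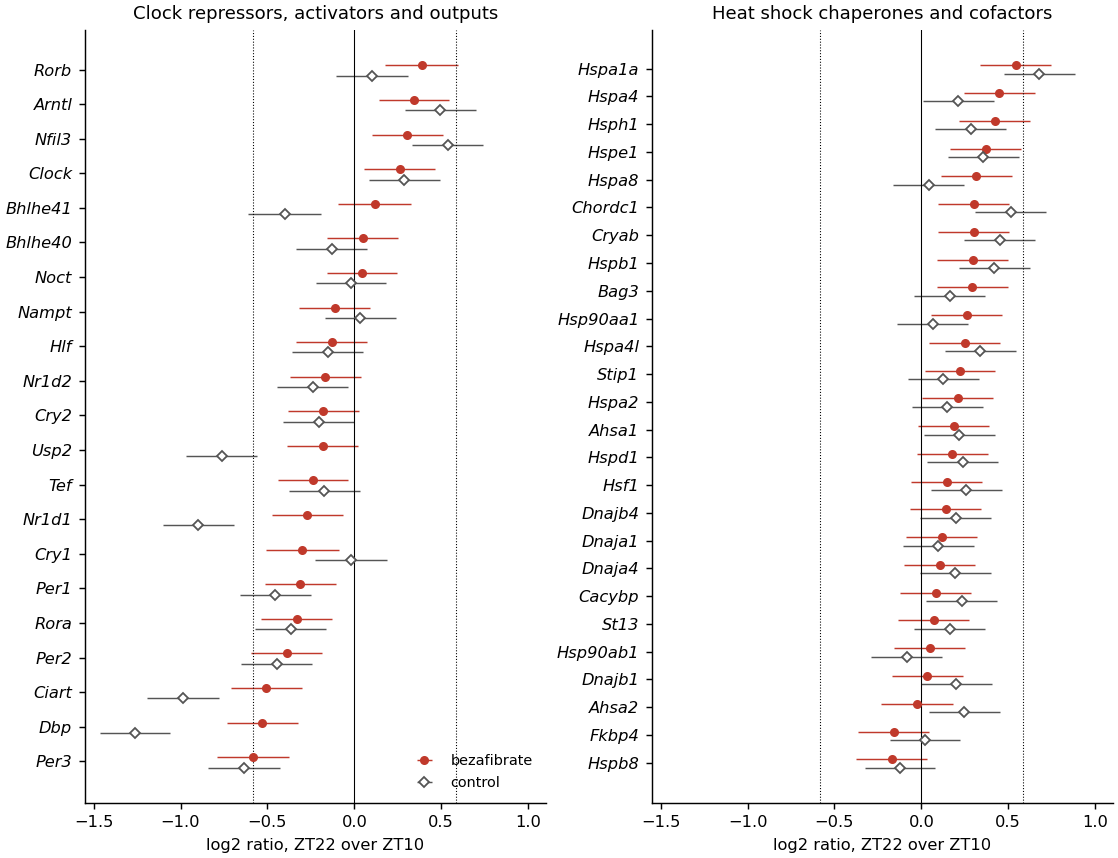
Log2 ratios of ZT22 over ZT10 for clock genes (left) and heat shock genes (right), in bezafibrate mice (red circles) and control mice (open diamonds). Bars are the scanner error and dotted lines mark 1.5-fold. Arntl and Clock lie right of 0 and Per1, Per2, Per3, Ciart and Dbp left of it in both diets, and Dbp, Nr1d1 and Ciart are closer to 0 in bezafibrate mice.

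Glucocorticoid-responsive genes had mostly lower signals at ZT22. Of 23 described genes of 25 listed, 17 had a negative ratio and 1 passed 1.5-fold, with a median of -0.11, against -0.31 and 3 in control mice. Perilipin 4 (Plin4), a lipid droplet protein, fell from 1733 to 1103 (-0.65 ± 0.20; -0.97 in control mice). The kinase Sgk1 went from 7638 to 5118 (-0.58 ± 0.20; -1.15 in control mice), just under 1.5-fold, and passed it when scaled on the array median (-0.59) or by quantiles (-0.61). Tsc22d3 (-0.26 ± 0.20), Fkbp5 (-0.23 ± 0.20) and Per1 were lower too. The metallothionein Mt2 went the other way, from 34381 to 51288 (0.58 ± 0.20), with -0.37 in control mice, and Mt1 had 0.20 ± 0.07.

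Immediate early genes, which report recent neuronal activity, had a positive ratio for 18 of 24 described genes, with a median of 0.14 against -0.04 in control mice. Over all genes described, 59.8% had a positive ratio. The zinc finger gene Egr3 rose from 128 to 212 (0.73 ± 0.21; -0.13 in control mice). Its relatives Egr2 (0.58 ± 0.07) and Egr4 (0.48 ± 0.20) were under 1.5-fold, which Egr2 just reached with quantile normalization, Egr1 had 0.15 ± 0.20 and Fos had 0.15 ± 0.07.

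Suprachiasmatic peptides and receptors had a positive ratio for 10 of 11 described genes, with a median of 0.18, and for 11 in control mice, with 0.21. Prokr2, the receptor of the clock output peptide prokineticin 2, rose from 92.3 to 141 (0.61 ± 0.21; 0.51 in control mice), but it was under 100 units at ZT10 and had 0.47 with normexp correction. Avp went from 37714 to 55655 (0.56 ± 0.20; 0.21 in control mice) and Vip from 278 to 408 (0.55 ± 0.20; 0.22 in control mice). Prok2 (0.18 ± 0.20), Grp (0.04 ± 0.20) and Rgs16 (0.06 ± 0.20) differed by no more than the scanner error.

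Peptides of energy balance stayed within 1.5-fold except Pomc. Among appetite-promoting genes, 8 of 9 described had a positive ratio, with a median of 0.17. In control mice 7 of the 9 had a negative one, with a median of -0.11. The arcuate peptides Agrp (from 1248 to 1512, 0.28 ± 0.20) and Npy (from 2457 to 2956, 0.27 ± 0.20) had ratios of -0.42 and -0.27 in control mice. Hcrt had 0.19 ± 0.20 and -0.22 in control mice, Pmch 0.17 ± 0.20 and -0.06. With quantile normalization the median was 0.07. Among appetite-suppressing genes 9 of 13 were positive, with a median of 0.10, where 59.8% of all genes described were positive. Neuromedin U (Nmu) had 0.55 ± 0.21, Socs3 0.35 ± 0.20, Cartpt 0.22 ± 0.20 and the insulin receptor Insr -0.21 ± 0.20.

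Of the releasing hormones and neuroendocrine peptides, 14 of 18 had a positive ratio, with a median of 0.14, and none passed 1.5-fold. Growth hormone-releasing hormone (Ghrh) went from 2924 to 4076 (0.48 ± 0.20), dynorphin (Pdyn) from 16286 to 22172 (0.45 ± 0.20) and enkephalin (Penk) from 57810 to 74020 (0.36 ± 0.20; 0.01 for its other probe). Oxytocin (Oxt, 0.29 ± 0.20), somatostatin (Sst, 0.21 ± 0.07), Trh (0.06 ± 0.20) and Gnrh1 (-0.03 ± 0.20) followed, and the dopamine transporter Slc6a3 was lowest, from 1000 to 691 (-0.53 ± 0.20; 0.10 in control mice). Among transcription factors of hypothalamic nuclei, Nr5a1, which marks the ventromedial nucleus, rose from 135 to 215 (0.67 ± 0.21; 0.52 with normexp correction).

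The GABA receptor subunit Gabrd, which forms receptors outside the synapse, rose from 1067 to 1736 (0.70 ± 0.20), where control mice had -0.81. No other gene of the 22 described in that list passed 1.5-fold, and Gad1 had 0.07 ± 0.20 and Gad2 0.09 ± 0.20. Of 11 sleep-wake genes of the histamine, prostaglandin and adenosine systems, Ptgds was the one past 1.5-fold, and the lowest was the histamine-making enzyme Hdc at -0.12.

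None of the 38 described genes of fibrate-responsive lipid oxidation and ketogenesis, of 44 listed, passed 1.5-fold in either direction. Over all genes described, 98.2% lay within 1.5-fold too. Cyp4a14, Fabp1, Cd36, Acot3, Fgf21 and Vnn1 were not described. The median of the 38 genes was 0.05 with 24 positive, where 59.8% of all genes described were positive. Under quantile normalization it was 0.00 with 19 positive. Among them, Angptl4 went from 2810 to 3359 (0.26 ± 0.20; 0.68 in control mice), Lpl from 550 to 733 (0.42 ± 0.20), Cpt1a from 958 to 946 (-0.02 ± 0.07) and Cyp4a10 from 164 to 157 (-0.06 ± 0.21). The receptor gene Ppara went from 213 to 189 (-0.17 ± 0.07) and Pparg from 183 to 205 (0.16 ± 0.07), and Ppard was well above background at ZT22 only. The cofactor Med1 rose from 1362 to 2094 (0.62 ± 0.20), but its other probe had 0.18. The median of the 14 receptors, partners and cofactors was -0.02. Cholesterol synthesis genes (24 described, median 0.10) and fatty acid synthesis genes (15 described, median 0.00) had none past 1.5-fold. The largest ratio among them was that of Mlxipl, the sugar-responsive factor ChREBP, at 0.58 ± 0.20, which passed 1.5-fold with quantile normalization (0.59).

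Ribosomal protein and oxidative phosphorylation genes, both bright, had small positive ratios. The signal was higher at ZT22 for 44 of 49 ribosomal protein genes and for 57 of 62 oxidative phosphorylation genes, each with a median of 0.14 and none past 1.5-fold. Under quantile normalization 26 ribosomal protein genes were higher and 22 lower, with a median of 0.01, and 44 oxidative phosphorylation genes were higher and 16 lower, with a median of 0.04. The largest ratio was that of the cytochrome c oxidase subunit Cox7b, at 0.57 ± 0.20 (-0.20 in control mice), and the lowest was that of Rpl14, at -0.40 ± 0.20.

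Falls were fewer. The chitinase-like macrophage protein gene Chil3 fell from 663 to 65.3, or 10.2-fold (-3.34 ± 0.21), and in control mice from 1069 to 75 (-3.83). The interferon-induced chemokine Cxcl10 fell from 199 to 56.8 (-1.81 ± 0.22; -0.91 in control mice). None of the 24 described genes of the interferon and antigen presentation list passed 1.5-fold, although Ifit3 (-0.53 ± 0.20; -0.01 for its other probe) and Irf9 (-0.53 ± 0.20) were lowest. The ribonuclease gene Rnase10 fell from 96.2 to 15.2 (-2.66 ± 0.33), the helicase Dna2 from 155 to 41.2 (-1.91 ± 0.23), the retinol carrier Rbp2 from 133 to 36.1 (-1.89 ± 0.22) and Tent5b from 99 to 31.1 (-1.67 ± 0.23). Each of these genes, Chil3 and Cxcl10 included, reached 100 units at ZT10 only.

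The receptor phosphatase Ptprg fell from 2819 to 879 (-1.68 ± 0.20) with its brightest probe, but its other probe had -0.29. Likewise Tcf7l1 had -1.01 ± 0.20 and 0.21. Lefty1 (-1.49 ± 0.22), Prss41 (-1.38 ± 0.21; -0.76 in control mice), Lgr6 (-1.10 ± 0.21) and Oas1e (-1.22 ± 0.21) were among the 20 lowest, and Oas1e was under 1.5-fold with normexp correction (-0.55). Lefty1, Prss41, Lgr6 and Oas1e reached 100 units at ZT10 only. Neuropeptide B (Npb) fell from 403 to 205 (-0.97 ± 0.20), with -0.01 in control mice. The macrophage gene Mpeg1 fell from 2048 to 1131 (-0.86 ± 0.20; 0.01 in control mice), while the 14 microglial genes lay between -0.18 and 0.11.

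A second probe gave a check within the same arrays. Of the 155 genes that rose, 29 had another described probe. It had the same sign for 18 and was past 1.5-fold for 4, and it had the opposite sign for 11. Of the 84 that fell, 7 had one, with the same sign for 6 and past 1.5-fold for 3. Over all 4718 genes with another probe, the sign was the same for 60.8%. The meiotic recombination gene Psmc3ip had 1.17 and 1.12 with its probes, the DNA repair glycosylase Ogg1 0.73 and 0.74, the dystrobrevin gene Dtnb -0.91 and -0.87, and Metap1d -0.77 and -0.85 (-0.43, under 1.5-fold, for its brightest probe with normexp correction). Together with Slc6a13 and Igf2, these are the named genes with both probes past 1.5-fold. Glo1 was close, with -0.56 and -0.57, and its brightest probe passed 1.5-fold with quantile normalization (-0.61).

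Among genes past 1.5-fold with a high signal, several rested on 1 probe. The transcription factor Tfap2e rose from 11143 to 20605 (0.89 ± 0.20), parathymosin (Ptms) from 63429 to 109518 (0.79 ± 0.20; 0.17 for its other probe) and the radial glia fatty acid carrier Fabp7 from 7610 to 13102 (0.78 ± 0.20). Stt3b (0.77 and 0.23), Tnrc6b (0.77 and -0.01), Syn1 (0.75 and -0.20), H1f10 (0.66 and -0.09) and Tfam (0.59 and -0.01) had another probe well under 1.5-fold. Averaged over probes, these genes and Ptms were under 1.5-fold, as were Tcf7l1 and Med1. Tpra1 (-0.65 ± 0.20), Padi2 (-0.61 ± 0.20), Dtnb, Mpeg1 and Plin4 were among the bright genes that fell.

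A few genes were dim on 1 bezafibrate array and bright on the other, and only a bound can be given. The bound sets the brighter signal against the higher of the dim signal and the lowest signal well above background on the dim array. There were 9 such genes higher at ZT22 and 3 lower. The largest bounds were at least 21.4-fold higher for Cyp2c23, at least 19.8-fold for Ankle1, at least 14.0-fold for the growth factor Fgf2 and at least 12.4-fold for Cldn34b3. Bpifa1 was at least 42.8-fold lower, the DNA primase subunit Prim2 at least 16.2-fold and Ska1 at least 11.9-fold. Cyp2c23 went the same way in control mice, from 9.55 to 166, and Bpifa1 from 858 to 623. Ankle1 went the other way there, from 61.1 to 8.91 (not well above background), and Prim2 from 10.1 to 22.3.

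The same time comparison in control mice uses other arrays of the same slide. Of the 13204 genes, 13200 were well above background on both control arrays. There, 0.826% of them were at least 1.5-fold higher at ZT22 and 0.917% lower. Their log2 ratios correlated at r = 0.40 (Spearman's rho 0.47) across genes, which are not independent replicates, and 69.7% had the same sign. Of 154 genes that rose in bezafibrate mice and could be compared, 117 (76.0%) had a positive ratio in control mice, 23 were past 1.5-fold there and 10 were past it in the opposite direction, with a control median of 0.25. Of 82 that fell, 65 (79.3%) had a negative ratio, 37 (45.1%) were past 1.5-fold and 3 past it in the opposite direction, with a control median of -0.53.

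Genes that moved alike in both diets included Chil3, Cxcl10, Anxa8, Zfp605 and Slc6a13 (above), the class II loader H2-DMb1 (0.97 and 1.54 in control mice), the betaine transporter Slc6a12 (0.78 and 1.14), the imprinted noncoding RNA Kcnq1ot1 (-0.77 and -0.92) and xanthine dehydrogenase (Xdh, -0.72 and -1.29). With normexp correction Slc6a12, Kcnq1ot1 and Xdh were under 1.5-fold in bezafibrate mice, where Slc6a12 reached 100 units at ZT22 only. Genes that moved in opposite ways were led by the X-linked noncoding RNA Firre. It fell from 246 to 27.7 in bezafibrate mice (-3.15 ± 0.24), where it reached 100 units at ZT10 only, and went from 31.5 to 547 in control mice (4.12). Psmc3ip rose from 345 to 777 in bezafibrate mice and went from 1416 to 381 in control mice (-1.89). The difference between diets was not tested for any gene, since each diet has 1 pool per time.

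**Figure D5:**
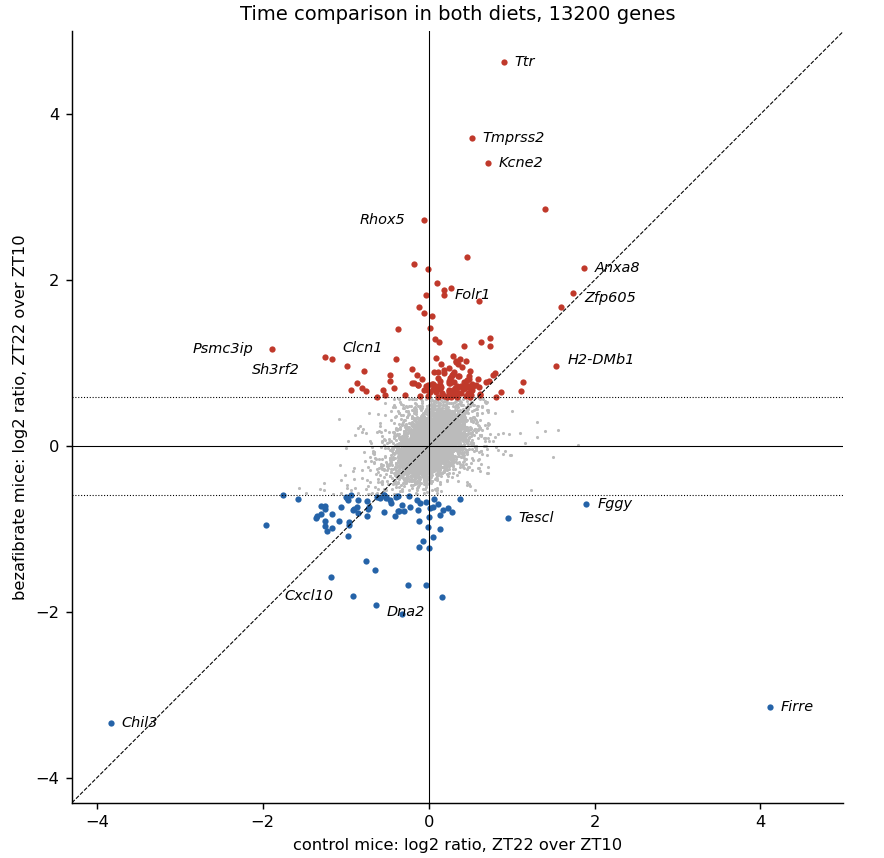
Log2 ratios of ZT22 over ZT10 in bezafibrate mice against those in control mice for 13200 genes. Red and blue points are past 1.5-fold in bezafibrate mice (dotted lines), and the dashed line marks equal ratios. Ttr, Tmprss2 and Kcne2 lie far above that line, Chil3, Anxa8 and Zfp605 near it, and Firre in the opposite corner.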

How the data were processed

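RNA of 4 mice per diet and time went onto 1 Cy3-labelled Agilent whole mouse genome array each, 4 arrays in all. Per the file headers, the authors used Feature Extraction 9.5.1.1, whose processed signal is an intensity with background subtracted and no scaling between arrays. Files of the diets were told apart by their deposited names. The deposited value table, a ratio of bezafibrate over control per the labels, correlated with the same log2 ratio of the files at r = 0.996 (ZT10) and 0.995 (ZT22) and was not used further.

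From the deposited intensity, log2 values were computed and each array's 75th percentile over non-control features subtracted. Outlier spots (73 at ZT10, 112 at ZT22) were dropped and spots of a probe averaged. Probes were named by accession (22951), symbol (5850) or older symbol (3944) through a RefSeq table of GRCm38.p6, while 2225 kept the file's name and 6204 had none. The probe with the highest mean signal stood for a gene. The steps were tested on simulated data. The simulation gave dim and bright genes the same noise, so it does not show how often dim genes pass 1.5-fold through noise.

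Named genes are the 20 highest and 20 lowest ratios, the 15 best in each direction with probes of like sign, list members past 1.5-fold (up to 6, else the extremes), clock, appetite and hormone genes, bright genes, and those most alike or unlike control mice. Some genes of this rule are not reported here. Others were chosen after their values were seen. The genes and the 39 lists were chosen with earlier results of these data known. Alternatives covered scaling, background correction, outlier spots, probe choice and the unit filter. Versions were R 4.3.3, limma 3.58.1 (normexp) and Python 3.11.15.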

Additional observations from a re-analysis of the deposited data

Results flagged for a closer look

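For 8 named genes, the ratio of ZT22 over ZT10 was past 1.5-fold in 1 direction in bezafibrate mice and past it in the other direction in control mice. The difference between the diets was not tested. The noncoding RNA Firre had a log2 ratio of -3.15 in bezafibrate mice and 4.12 in control mice. Psmc3ip had 1.17 and -1.89, with 1.12 for its other probe in bezafibrate mice. Sh3rf2 had 1.07 and -1.26, and the muscle chloride channel Clcn1 had 1.06 and -1.17. The phosphatase Mtm1 had 0.96 and -0.98, but its other probe had -0.18 in bezafibrate mice and the mean of both was 0.39. The GABA receptor subunit Gabrd had 0.70 and -0.81. The carbohydrate kinase Fggy had -0.69 and 1.90, and Tescl had -0.86 and 0.96. With normexp correction Fggy was within 1.5-fold in bezafibrate mice (-0.28). In bezafibrate mice Firre and Fggy reached 100 units at ZT10 only, and Sh3rf2 and Clcn1 at ZT22 only.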

How the results depend on the processing

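No paired analysis was possible because each diet and time has 1 pool, and leaving out an array leaves no comparison. The median of all genes was 0.01 to 0.04 under every scaling tried. Scaling on the median, quantile normalization, averaging probes, keeping outlier spots and adding dim genes at their bound kept every count of rises and falls within 1.5 times. With normexp correction, 112 genes rose and 37 fell (22 and 5 at 2-fold), so rises made up 75.2% of the genes past 1.5-fold in place of 64.9%. At 50 units, 150 genes fell (45 at 2-fold). At 200 units, 100 rose and 46 fell (18 and 6 at 2-fold). With no unit filter, 329 rose and 254 fell (65 and 56 at 2-fold). Rises then made up 56.4% of the genes past 1.5-fold, and 67.5% of those genes had the direction of control mice in place of 77.1%. Beyond the number of genes passing the filter, the cause was not tested. Of 89 named genes past 1.5-fold, 62 stayed past it in every alternative that measured them, and 27 did not in at least 1. No named gene past 1.5-fold changed sign. The medians of 6 lists near 0 did (clock kinases, clock activators, endothelium, microglia, neurons in general and oligodendrocyte precursors), with values from -0.11 to 0.10. Signals near background set the widest ratios. With normexp correction the log2 ratio was 3.46 for Ttr, 2.09 for Kcne2, 2.03 for Tmprss2 and -2.54 for Chil3.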

Other observations

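Transcripts named only as RIKEN clones were frequent among the falls, a grouping made after the values were seen. They were 3.41% of all genes described, 8.39% of those that rose and 27.4% of those that fell (23 of 84). The 23 had a median log2 ratio of -0.82 in bezafibrate mice and -0.99 in control mice, where 20 were lower at ZT22 and 17 past 1.5-fold. Their median scaled signal was 115, against 188 for the other genes that fell. Their part in the count of falls was not tested.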
